A study of Mus musculus with 11 samples.

Results

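Kinesins, cytoplasmic dynein and tubulins, the motors and the track of microtubule transport, were followed through the differentiation of cultured mouse oligodendrocytes and in cells without the transcription factor Myrf. The members were all probe sets (short oligonucleotide groups that read a transcript) annotated to exactly 1 gene whose symbol begins with Kif and a digit or c, Dync, Dynll, Dynlt, or Tub with a, b, e or g and a digit. They came to 156 of the 45101 probe sets on the array and named 68 of its 18194 genes with 1 symbol. A further 11 probe sets matched in part but named several genes, Tuba1b and Tuba1c among them, and were left out. A signal of 200 on at least 3 of the 11 arrays was reached by 96 member probe sets of 49 genes, among 10069 genes of the whole array, and each gene was read from its brightest probe set.

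Knockout oligodendrocytes (n = 3) were MRF fl/fl, Olig2 wt/cre, so that both floxed alleles of Myrf (MRF in the labels) can be deleted by the Cre recombinase on 1 Olig2 allele. Control oligodendrocytes (n = 4) came from littermates that were MRF wt/fl and carried the same Olig2 wt/cre, so they too have Cre and 1 floxed allele. Cells of both genotypes were purified from brain at postnatal day 7 by PDGFRα after removal of microglia, expanded in 10 ng/ml PDGF-AA, and differentiated for 4 days in 40 ng/ml T3 without PDGF-AA. Progenitors (n = 4), also from postnatal day 7, stayed in 10 ng/ml PDGF-AA without T3 for 6 days. The labels call them control and give no further genotype. The medium of every group held 2% B27. Whether replicates came from separate animals or cultures is not given in the sources used here, so a p-value here speaks of how far these samples spread, which may be technical.

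Microtubules are polymers of alpha and beta tubulin that are seeded by gamma tubulin. Most kinesins carry cargo toward the growing end, cytoplasmic dynein carries it back, and a further class of kinesins builds the spindle and completes cell division. In oligodendrocytes, motors bring myelin mRNAs and vesicles along microtubules into the processes that wrap axons, whereas mitotic kinesins belong to the dividing progenitor.

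Each array had been scaled to a trimmed mean of 500, its median signal was 60.5 to 80.4, and 15100 to 17130 probe sets reached 200. Myrf, read by 1 probe set (its position against the deletion was not examined), gave 2849, 1904 and 2223 on knockout arrays and 6215 to 7517 on control arrays. Progenitor replicate 2 stood apart: it correlated with the other progenitor arrays at 0.844 to 0.902, while the other 3 correlated at 0.930 to 0.975, and its Myrf signal was 6848 against 752, 1135 and 970.5. The ratio of 5′ to 3′ Gapdh signal was 0.332 and 0.12 on progenitor replicates 1 and 4 and between 1.15 and 1.41 on the other arrays. Counts against progenitors are therefore also given without replicate 2 and without replicates 1 and 4, and single genes where this moves a value much or changes a call. The setting without replicates 1 and 4 keeps replicates 2 and 3. On progenitor replicates 1 to 4 Mbp read 1338, 19380, 15042 and 1587, and Mag 107, 2957, 622 and 145. That setting thus keeps the progenitor arrays highest in these oligodendrocyte genes, and its values do not isolate the Gapdh ratio. Lineage genes (Sox10, Olig1, Olig2, Nkx2-2) were above 100 in every group, and the summed signal of 7 measured genes of an 8-gene oligodendrocyte list (Mbp and Mag among them) was 82020 to 102817 in controls, 45838 to 55305 in knockouts and 15066 to 57546 in progenitors.

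In control oligodendrocytes compared with progenitors, the tubulins Tuba4a and Tubb4a, the cargo kinesin Kif1a and the dynein light chains Dynll2 and Dynlt3 rose. The tubulin Tubb5, the kinesins Kif13a and Kif21b, and mitotic kinesins such as Kif2c and Kif11 fell. Among the genes named as rising, Tubb4a, Kif1a and Dynll2 were not called without progenitor replicates 1 and 4. Of the 49 genes, 12 were higher (24.4% of all genes tested were) and 23 were lower (29.6% of all genes), in limma with Benjamini-Hochberg adjusted p under 0.05. The median log2 difference over the 49 genes was -0.37, beside -0.09 over all genes. Of the 23 lower genes 10 were mitotic kinesins, of which all but Kif22 entered the test only through progenitor arrays, where they are high, so their number is a description. Of the 12 higher genes Tuba4a, Kif1a and Kif21a entered it only through oligodendrocyte arrays, where they are high, so their calls are a description too. Without progenitor replicate 2 the counts were 15 higher and 24 lower (27.9% and 32.9% of all genes), and without replicates 1 and 4 they were 6 and 17 (19.9% and 22.7%).

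Astrocyte genes moved with this comparison. The summed signal of 10 astrocyte markers was 5330 to 10739 in progenitors, 56523 to 77300 in controls and 86091 to 92471 in knockouts, with 4 of the 10 under 100 on every progenitor array and 1 of the 10 on every control array and every knockout array. Gfap, the intermediate filament of astrocytes, went from 61.8 to 100.3 in progenitors to 14658 to 17212 in controls, and the water channel Aqp4 from 3.7 to 21.9 to 7156 to 12605. The part of astrocyte RNA in the differences from progenitors was not tested.

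**Figure D1:**
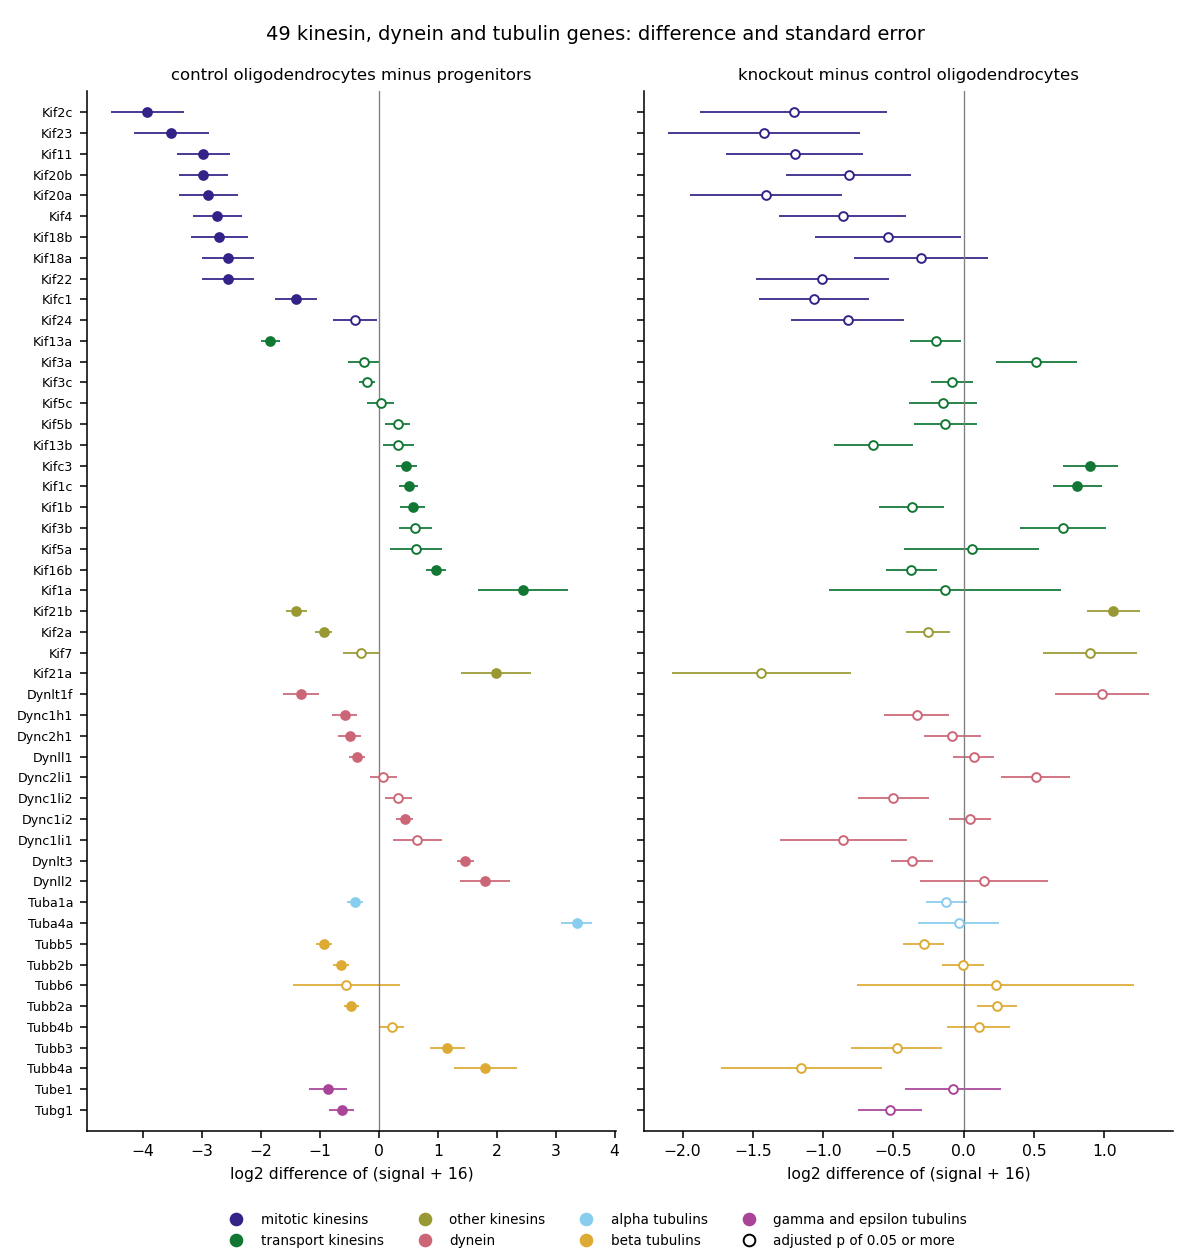
Log2 difference of signal + 16 (points) with its standard error (lines) for the 49 genes, coloured by role, in control oligodendrocytes minus progenitors (left, n = 4 and 4) and knockout minus control oligodendrocytes (right, n = 3 and 4), with different axis ranges. Filled points have an adjusted p under 0.05; 10 of 11 mitotic kinesins are filled on the left and 0 on the right, where all 11 lie below 0.

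Of 14 mitotic kinesins 11 passed the filter, and 10 of those, all but Kif24, fell from progenitors to control oligodendrocytes. Since 10 of the 11 met the filter only with progenitor arrays counted (Kif22 met it without them), the count describes these genes and supports no statement about the class. Their median log2 difference was -2.75, -3.30 without progenitor replicate 2 and -2.16 without replicates 1 and 4.

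Promoter windows of 4 genes of this class and of Tuba4a are shown first, to set mitotic kinesins that fell beside a tubulin gene that rose. Each is the 250 bases before the RefSeq start (GRCm38.p6, on the gene's strand), with capitals marking TTTGAA or TTCGAA (the letters of the cell cycle homology region) and CCAAT (the CCAAT box), each on either strand. These 5 were picked after the matches were seen. They lie at chr19:37376132-37376381 (plus strand, Kif11), chr7:127042421-127042670 (minus, Kif22), chr4:117178773-117179022 (minus, Kif2c), chrX:100625815-100626064 (plus, Kif4) and chr1:75219295-75219544 (minus, Tuba4a).
Kif11: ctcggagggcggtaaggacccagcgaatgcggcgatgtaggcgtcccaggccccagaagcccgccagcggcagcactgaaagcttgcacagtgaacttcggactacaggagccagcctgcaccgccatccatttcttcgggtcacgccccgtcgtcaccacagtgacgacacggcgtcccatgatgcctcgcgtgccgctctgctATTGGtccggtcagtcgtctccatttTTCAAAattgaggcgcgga
Kif22: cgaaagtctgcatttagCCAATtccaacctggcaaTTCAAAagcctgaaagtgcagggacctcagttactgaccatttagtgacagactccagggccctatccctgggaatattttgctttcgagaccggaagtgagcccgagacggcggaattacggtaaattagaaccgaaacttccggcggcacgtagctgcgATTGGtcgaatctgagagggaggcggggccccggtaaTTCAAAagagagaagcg
Kif2c: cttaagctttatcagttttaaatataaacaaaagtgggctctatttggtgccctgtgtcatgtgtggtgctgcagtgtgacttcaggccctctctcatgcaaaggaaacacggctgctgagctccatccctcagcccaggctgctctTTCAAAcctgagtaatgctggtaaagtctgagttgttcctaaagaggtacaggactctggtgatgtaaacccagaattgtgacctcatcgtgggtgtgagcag
Kif4: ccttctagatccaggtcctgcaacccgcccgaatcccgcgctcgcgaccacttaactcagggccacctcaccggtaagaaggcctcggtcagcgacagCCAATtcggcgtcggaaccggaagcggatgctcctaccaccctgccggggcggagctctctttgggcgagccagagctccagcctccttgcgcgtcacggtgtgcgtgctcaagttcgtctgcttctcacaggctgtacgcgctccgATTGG
Tuba4a: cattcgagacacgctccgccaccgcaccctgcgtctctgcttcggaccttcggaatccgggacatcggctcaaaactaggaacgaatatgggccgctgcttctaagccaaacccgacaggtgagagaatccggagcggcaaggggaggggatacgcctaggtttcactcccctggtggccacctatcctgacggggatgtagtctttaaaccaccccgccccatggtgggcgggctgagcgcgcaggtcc

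In Kif11 the cell cycle letters lay 19 to 14 bases before the start and a CCAAT box 45 to 41 bases before it, and in Kif22 the nearest pair lay at 17 to 12 and 54 to 50 bases. The Kif2c window held the first motif alone, the Kif4 window 2 CCAAT boxes, and that of Tuba4a neither. Among 13 mitotic kinesin windows, 6 (46.2%) held TTTGAA or TTCGAA and 9 (69.2%) held CCAAT, beside 17.1% and 33.8% of 32851 windows of all genes. Both motifs were in 4 (30.8%, beside 6.02%). The 13 include Kif14, Kif15 and Kifc5b, which were under the filter, and Kif24, which was not called in controls against progenitors with all arrays. Kif14, Kif15 and Kif24 held the first motif, and Kif14 and Kif24 held both. The shares therefore describe the mitotic kinesins as listed and not the genes that fell. Transport kinesins had 12 windows, with the first motif in 1 and CCAAT in 4, and over all 58 member windows the counts were 11 (19%) and 25 (43.1%). These matches are letters in a window and no measured binding.

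Kif2c, a kinesin that takes microtubule ends apart at centromeres, gave 5115, 713, 2564 and 6229 on progenitor replicates 1 to 4. Its signal was 119, 80.1, 384.5 and 197 on the control arrays and 81.5, 37.3 and 78.2 on the knockout arrays. No control array reached the lowest progenitor, and the log2 difference was -3.93 ± 0.62 (SE, adjusted p = 0.000326). It was -4.58 without progenitor replicate 2 and -2.91 without replicates 1 and 4 (adjusted p = 0.00544). Kif23, which bundles the central spindle in cytokinesis, read 1533, 334, 1772 and 2248 in progenitors and 96.6, 16.5, 213 and 133 in controls (log2 difference -3.52 ± 0.64, adjusted p = 0.000808). Leaving out the same arrays gave -4.12 and -2.90.

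Kif11, the motor that pushes spindle poles apart, had progenitor signals of 1919, 712, 3910 and 1568 against 201, 115, 379 and 183 in controls, a log2 difference of -2.98 ± 0.45 (adjusted p = 0.000255). For Kif20b, a cytokinesis kinesin, progenitors gave 911.5, 303, 1095 and 1047 and controls 37.9, 88.3, 133 and 91.5, a log2 difference of -2.98 ± 0.41 (adjusted p = 0.000143). Groups did not overlap for either gene. Both values were -3.40 without progenitor replicate 2, and they were -2.96 and -2.61 without replicates 1 and 4. The other falls ran from -2.90 for Kif20a, through the chromosome-arm motors Kif4 (-2.75) and Kif22 (-2.56) and the plus-end motors Kif18b (-2.71) and Kif18a (-2.56), to -1.41 for the minus-end motor Kifc1, which lost its call without progenitor replicates 1 and 4 (-1.18, adjusted p = 0.0563). Kif24, which acts at centrioles, gave 340, 71.3, 200 and 205.5 in progenitors and 109 to 168 in controls, with a log2 difference of -0.40 ± 0.37 (adjusted p = 0.376) that became -0.79 (adjusted p = 0.0204) without progenitor replicate 2.

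Progenitor replicate 2 had the lowest of the 4 progenitor signals for 11 of 11 mitotic kinesins, and for Kif24 it lay below the control range. Control replicate 3 was the highest control for 8 of the 11. Proliferation genes outside the kinesins moved along: the mean log2 signal of this list was 10.2 on progenitor replicate 2 and 12.2 to 12.3 on the other progenitors, and 9.50 on control replicate 3 against 7.86 to 8.71 on the other controls. In these bulk samples fewer dividing cells and less RNA per dividing cell cannot be told apart.

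**Figure D2:**
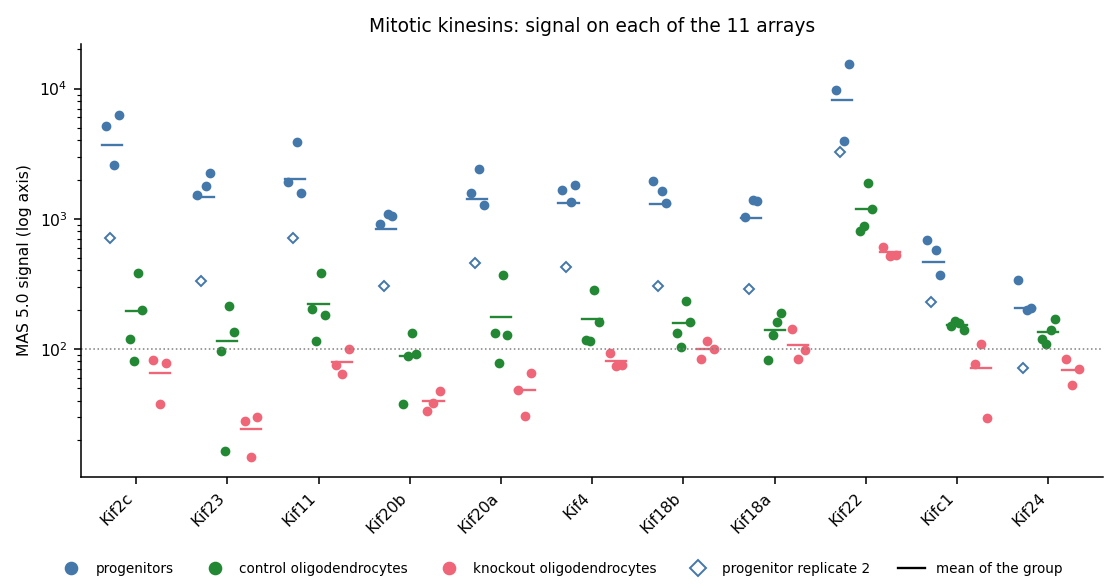
MAS 5.0 signal (log axis) of the 11 mitotic kinesins on each of the 11 arrays, with the arithmetic mean of each group as a bar and progenitor replicate 2 as an open diamond. The dotted line is a signal of 100; the diamond is the lowest progenitor point for every gene, and the knockout points (n = 3) lie mostly under the line.

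Of the 13 transport kinesins tested, 5 rose from progenitors to controls (24.4% of all genes did) and 1 fell (29.6% of all genes did), and the median log2 difference was 0.46. Kif1a, which carries synaptic-type and dense-core vesicles in neurons, gave 119, 1584, 858 and 64.5 in progenitors and 2603, 2057, 1643 and 1493 in controls. Replicate 2 of the progenitors lay inside the control range. The log2 difference was 2.45 ± 0.76 (adjusted p = 0.0175), 3.18 (adjusted p = 0.000692) without that array and 0.70 (adjusted p = 0.105) without progenitor replicates 1 and 4. Kif1a passed the filter through oligodendrocyte arrays only, so its call is a description.

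Kif16b, a motor of early endosomes, had progenitor signals of 206, 317, 288 and 298 and control signals of 535, 564, 587 and 517. The groups were apart, with a log2 difference of 0.97 ± 0.17 (adjusted p = 0.000661), or 0.83 without progenitor replicates 1 and 4. Kif1c, a motor of integrin and dense-core vesicles, had a difference of 0.51 ± 0.16 (adjusted p = 0.0189, and 0.0787 without progenitor replicates 1 and 4). For Kifc3, a minus-end motor of epithelial junctions and Golgi, it was 0.46 ± 0.18 (adjusted p = 0.0462), a call lost without progenitor replicate 2 (0.0713), without replicates 1 and 4 (0.0778), in the fit of these 2 groups (0.0686) and after quantile normalization (0.0643).

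Kif13a, an endosome and Golgi motor, went the other way. Progenitor signals were 3758, 3585, 3734 and 3145, and control signals 987, 969, 1086 and 876. The log2 difference of -1.84 ± 0.17 (adjusted p = 6.23e-06) had no overlap between groups, progenitor replicate 2 included, and each of the 5 Kif13a probe sets was lower in controls, by 1.14 to 1.84 on the log2 scale.

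The conventional kinesin heavy chains Kif5a, Kif5b and Kif5c did not pass the threshold, with log2 differences of 0.63 ± 0.44, 0.32 ± 0.21 and 0.03 ± 0.22. Kif5a had an adjusted p of 0.0245 and Kif5b one of 0.0349 once progenitor replicate 2 was left out, and Kif5c had one of 0.041 at 0.45 without replicates 1 and 4. The kinesin-2 subunits did not pass either: Kif3a gave -0.26 ± 0.27, Kif3b 0.62 ± 0.28 and Kif3c -0.21 ± 0.14, and Kif3b reached an adjusted p of 0.019 without that array. Kif13b gave 0.33 ± 0.26.

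Kif1b, whose transcripts encode distinct motors for mitochondria and synaptic vesicle precursors, was the one gene whose probe sets were called in opposite directions. Its brightest probe set, 1423994_at, gave 4616, 5895, 3040 and 6058 in progenitors and 8183, 8225, 6258 and 5840 in controls (log2 difference 0.57, adjusted p = 0.0403). The Kif1b call held under 9 of 20 alternative settings. It was lost in the fit of these 2 groups (adjusted p = 0.0682) and with the replicate block (0.058). The Kif1b probe sets 1451200_at and 1451762_a_at were also higher in controls, by 1.50 and 1.01. In contrast 1425270_at, 1455182_at and 1451642_at were lower, with differences of -1.64, -1.54 and -0.97, and 1423995_at gave 0.10 and was not called. Which transcript each probe set reads was not examined.

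**Figure D3:**
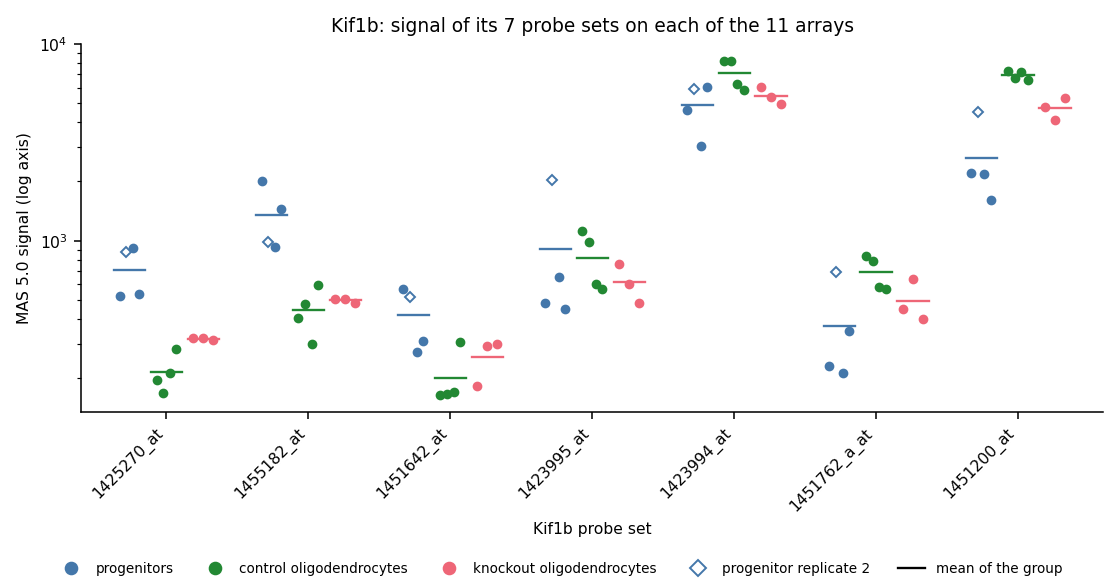
MAS 5.0 signal (log axis) of the 7 Kif1b probe sets on each of the 11 arrays, with the arithmetic mean of each group as a bar and progenitor replicate 2 as an open diamond. In 1425270_at all 4 progenitors lie above all 4 controls, while in 1451200_at all 4 lie below; levels of different probe sets are not comparable.

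Kinesins outside both classes that passed the filter were Kif2a, Kif7, Kif21a and Kif21b. Kif21a, a kinesin that slows microtubule growth at the cell cortex, had progenitor signals of 138, 1161, 443 and 98.7 and control signals of 1804, 1405, 1188 and 740. The log2 difference was 1.99 ± 0.59 (adjusted p = 0.0141), 2.62 without progenitor replicate 2 and 0.75 (adjusted p = 0.156) without replicates 1 and 4. Kif21a passed the filter through oligodendrocyte arrays only, so its call is a description. Its second probe set, 1455029_at, gave 3.04 with no overlap between groups.

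Its paralog Kif21b, a motor that limits microtubule growth and carries receptors in neurons, moved in the opposite direction. Progenitors read 1854, 2913, 1845 and 1985, controls 927.5, 803, 754 and 684, and the log2 difference was -1.40 ± 0.18 (adjusted p = 7.41e-05) with no overlap. Kif2a, a microtubule depolymerase, fell by 0.94 on its brightest probe set (adjusted p = 0.000288). The other 3 Kif2a probe sets were not called, with differences of -0.16, 0.53 and 0.80. Kif7, of Hedgehog signalling in cilia, gave -0.30 ± 0.31.

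Of 10 dynein genes tested, 3 were higher and 4 lower in controls than in progenitors, beside 24.4% and 29.6% of all genes. Dynlt3, a Tctex-type light chain, gave 3905, 3745, 3477 and 5224 in progenitors and 11473, 11087, 11116 and 11107 in controls. The groups were apart, the log2 difference was 1.47 ± 0.14 (adjusted p = 9.77e-06), and its 4 probe sets rose by 1.00 to 4.00. Dynll2, a light chain shared with other motors, read 1861, 9527, 2396 and 1882 in progenitors and 12186, 12284, 7628 and 10581 in controls. Progenitor replicate 2 lay inside the control range, and the difference of 1.80 ± 0.42 (adjusted p = 0.00399) was 1.13 (adjusted p = 0.0593) without progenitor replicates 1 and 4. The intermediate chain Dync1i2, which links dynein to dynactin, had a difference of 0.44 ± 0.14 (adjusted p = 0.0201), not called without progenitor replicates 1 and 4 (0.31, adjusted p = 0.108).

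Among the lower dynein genes Dynlt1f, a further Tctex-type chain with near-identical neighbours, gave 1895, 734, 1472 and 1536 in progenitors and 400.5, 655, 354 and 793 in controls, a log2 difference of -1.33 ± 0.31 (adjusted p = 0.00383). Progenitor replicate 2 lay inside the control range, and without replicates 1 and 4 the call was lost (-0.97, adjusted p = 0.0503). The heavy chain Dync1h1, the motor subunit itself, fell by 0.58 (adjusted p = 0.0367) and was not called in 5 of 11 fits that left out 1 array. The ciliary heavy chain Dync2h1 fell by 0.50 (adjusted p = 0.0404) and was not called in 8 of those 11 fits. Dynll1 fell by 0.37 (adjusted p = 0.0329), but was not called without progenitor replicate 2 (adjusted p = 0.0773), and quantile normalization gave 0.10, so its direction depends on the scaling. The light intermediate chains Dync1li1 and Dync1li2 gave 0.65 ± 0.42 and 0.33 ± 0.24 and did not pass, but Dync1li1 had an adjusted p of 0.00845 without progenitor replicate 2 and Dync1li2 one of 0.0461 without replicates 1 and 4.

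**Figure D4:**
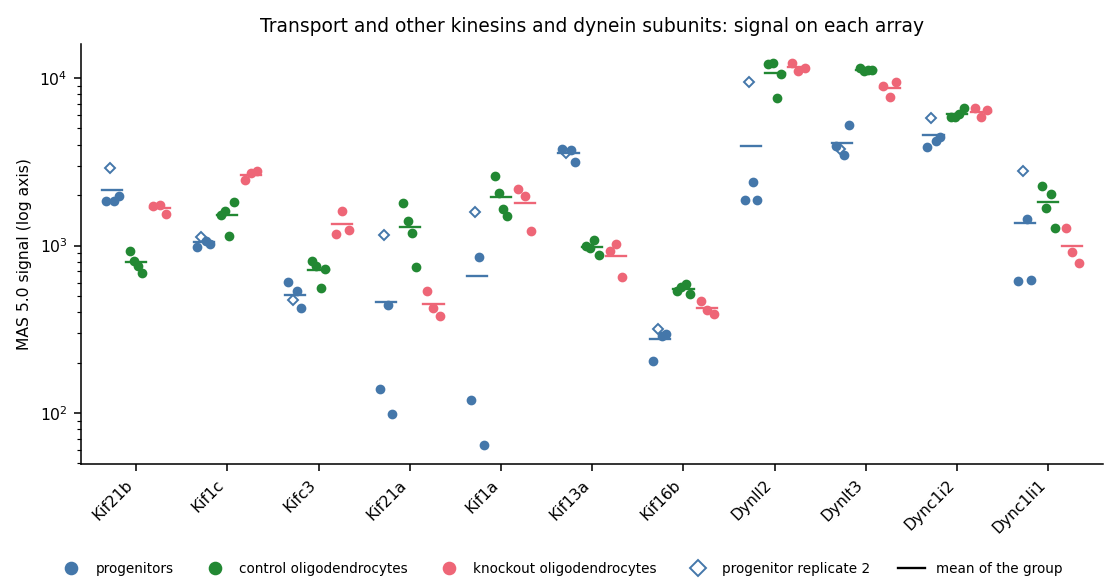
MAS 5.0 signal (log axis) of 7 kinesins and 4 dynein subunits on each of the 11 arrays, with the arithmetic mean of each group as a bar and progenitor replicate 2 as an open diamond. Kif21b, Kif1c and Kifc3 at the left have knockout points above all control points, and for Kif21a, Kif1a and Dynll2 the open diamond lies with the controls.

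Tubulin genes changed isotype by isotype. Tuba4a, an alpha tubulin that lacks the encoded C-terminal tyrosine, gave 210, 91, 169 and 259 in progenitors and 1667, 2024, 2230 and 1733 in controls. Control signals were all above progenitor signals, with a log2 difference of 3.36 ± 0.27 (adjusted p = 2.44e-06), and the second probe set gave 2.01. Tuba4a passed the filter through oligodendrocyte arrays only, so its call is a description. Tuba1a, the alpha tubulin of young neural cells, gave 20089, 25702, 32075 and 26391 in progenitors and 18291 to 20696 in controls, a log2 difference of -0.41 ± 0.13 (adjusted p = 0.0215). Quantile normalization turned it to 0.08, and the highest signal of any probe set was 22057 to 26673 on oligodendrocyte arrays and 25749 to 44875 on progenitor arrays.

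Tubb4a, a beta tubulin abundant in myelinating oligodendrocytes, read 2094, 13428, 2731 and 1397 in progenitors and 12302, 10891, 11810 and 10425 in controls. The log2 difference was 1.81 ± 0.53 (adjusted p = 0.0133), but progenitor replicate 2 was above every control array. Without it the difference was 2.49 (adjusted p = 3.91e-06), and without replicates 1 and 4 it was 0.90 (adjusted p = 0.171). Tubb3, the beta tubulin used as a neuronal marker, rose by 1.16 ± 0.30 (adjusted p = 0.00685), from 427, 644, 416 and 323 to 1672, 1185, 599 and 846, but was at 0.93 (adjusted p = 0.066) without progenitor replicates 1 and 4. Beside it, the summed signal of 14 neuron markers was 7024 to 12560 in progenitors and 3899 to 5662 in controls, with 5 and 7 of the 14 under 100 on all arrays of the group. Most of that sum came from Gap43 and, on progenitor replicate 2, Dcx. Gap43, Snap25, Syt1, Syp and Elavl4 of the same list were lower on every control array than on every progenitor array. Stmn2 went the other way, as Tubb3 did, with 154 to 348 in controls and 1.7 to 37 in progenitors. The remaining markers overlapped between these groups. The part of these markers in the Tubb3 value was not tested.

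Tubb5, the beta tubulin of dividing and young cells, had progenitor signals of 17786, 14496, 23574 and 19390 and control signals of 9686, 9647, 10076 and 9459, a log2 difference of -0.93 ± 0.14 (adjusted p = 0.000214) without overlap. Tubb2b (-0.64 ± 0.14, adjusted p = 0.00226) and Tubb2a (-0.47 ± 0.13, adjusted p = 0.0104, and 0.0762 without progenitor replicates 1 and 4) were lower as well, and Tubb4b gave 0.22 ± 0.21. For Tubb6, progenitor replicate 2 read 92.3 while the other 3 read 3739, 3889 and 3253 and controls 807 to 1162. The difference was -0.55 ± 0.91 (adjusted p = 0.628) with that array and -1.82 ± 0.18 (adjusted p = 4.57e-06) without it, and 0.66 (adjusted p = 0.629) without replicates 1 and 4.

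Gamma tubulin Tubg1, which nucleates microtubules, fell by 0.63 (adjusted p = 0.0238), from 2736, 2189, 3855 and 1986 to 1554, 1585, 2178 and 1455. The epsilon tubulin Tube1 of centrioles had a difference of -0.87 (adjusted p = 0.0356), from 358.5, 131, 253 and 417.5 to 136, 174.5, 127 and 125, and passed the filter through progenitor arrays only. Its call held under 10 of 20 alternative settings, and without progenitor replicates 1 and 4 the difference was -0.36 (adjusted p = 0.378). Tubulin coding sequences are close to one another, so probe sets with names ending in x_at or s_at, such as those of Tuba1a and Tubb2a, may read several isotypes.

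**Figure D5:**
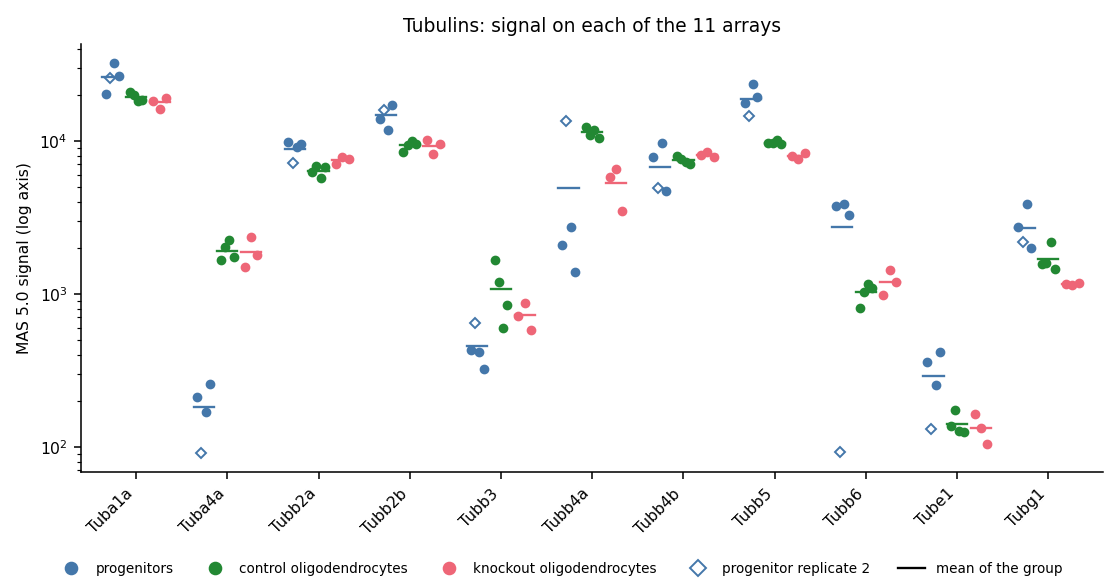
MAS 5.0 signal (log axis) of the 11 tubulin genes on each of the 11 arrays, with the arithmetic mean of each group as a bar and progenitor replicate 2 as an open diamond. Tuba4a controls (1667 to 2230) lie above all progenitors (91 to 259), knockout points of Tubb4a (3451 to 6512) lie below all control points, and the diamond of Tubb6 is at 92.3.

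Between knockout and control oligodendrocytes fewer members differed, and the 3 that passed the threshold were all higher in the knockout: Kif21b, Kif1c and Kifc3. No member was lower in limma at an adjusted p under 0.05, and over all genes tested 3.64% were higher and 3.88% lower at that threshold. At an unadjusted p under 0.05, 6 members were higher and 7 lower, beside 12.3% and 8.88% of all genes. The 49 genes had a median log2 difference of -0.20, beside 0.03 over all genes. Arrays of the groups did not overlap for 9 members that were higher (17.4% of all genes) and 14 that were lower (14.2%).

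Same-numbered knockout and control arrays deviated together, with correlations of 0.242, 0.241 and 0.214. A fit of these 2 groups with the replicate number as a block, which leaves out control replicate 4, called 6 members higher, adding Dynlt1f, Kif3a and Kif3b. It called 11 lower, namely Kif11, Kif20a, Kif22, Kif21a, Kif1b, Tubb4a, Tubg1, Dync1h1, Dync1li1, Dync1li2 and Dynlt3, while calling 13% of all genes higher and 9.24% lower. The fit of these 2 groups without the block called 6 higher and 7 lower (8.29% and 7.47% of all genes). Without progenitor replicates 1 and 4 the counts were 4 and 3 (5.55% and 5.28%). Without progenitor replicate 2 they were 4 and 4 (6.62% and 6.52%), since the spread of that array enters the shared variance.

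Kif21b gave 1724, 1739 and 1541 in knockouts and 927.5, 803, 754 and 684 in controls. The knockout arrays were all above the control arrays and all below the progenitor arrays. The log2 difference of 1.07 ± 0.19 (adjusted p = 0.00493) passed the threshold under each of 20 alternative settings, with adjusted p-values of 0.000603 to 0.0296. Against progenitors the knockout value was -0.34 ± 0.19 (adjusted p = 0.158), next to -1.40 for controls; these comparisons share arrays.

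Kif1c gave 2452, 2692 and 2781 in knockouts and 1517, 1605, 1139 and 1828 in controls, again without overlap. Its log2 difference was 0.81 ± 0.17 (adjusted p = 0.0144) and lost the call without knockout replicate 2 (adjusted p = 0.0683) or 3 (0.0684). Kifc3 gave 1172, 1615 and 1236 against 809, 755, 557 and 720, a log2 difference of 0.90 ± 0.20 (adjusted p = 0.015) that was not called without knockout replicate 2 (adjusted p = 0.09). Both genes were also higher in knockouts than in progenitors, by 1.32 and 1.36, with the control means between those of progenitors and knockouts.

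Tubb4a gave 5831, 6512 and 3451 in knockouts, all below the control signals of 10425 to 12302. With all 11 arrays the log2 difference was -1.16 ± 0.58 (adjusted p = 0.275). The call turned on progenitor replicate 2: without that array the same difference had a standard error of 0.24 and an adjusted p of 0.00809. With the replicate block the difference was -1.20 (adjusted p = 0.00899). Kif21a read 532, 426 and 377 in knockouts against 740 to 1804 in controls, -1.44 ± 0.64 (adjusted p = 0.219), and -1.68 with the block (adjusted p = 0.000894). Its second probe set gave -1.61 (adjusted p = 0.0684).

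All 11 mitotic kinesins had negative log2 differences between knockout and control, from -1.42 for Kif23 to -0.30 for Kif18a with a median of -1.01, and 0 passed the threshold with all arrays (3 at an unadjusted p under 0.05). For Kif11 the knockout arrays read 74.4, 64.2 and 99.9, all below the control arrays, and the difference was -1.20 ± 0.49 (adjusted p = 0.174), or -1.25 (adjusted p = 0.0247) with the block. With the block Kif20a (-1.48, adjusted p = 0.026) and Kif22 (-0.98, adjusted p = 0.0449) were called too. Most knockout signals of the class were near or under 100, where a further fall is hard to measure. The proliferation list behaved alike, with a median of -1.31 and 1 of 19 genes called (Mki67, lower), or 16 of 19 without progenitor replicate 2.

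Among cargo motors and dynein, Kif3a and Kif3b, the motor subunits of kinesin-2, had log2 differences of 0.52 ± 0.29 (adjusted p = 0.336) and 0.71 ± 0.30 (adjusted p = 0.203). Neither overlapped between groups, and both were called with the block (adjusted p = 0.0368 and 0.0166). Dynlt1f gave 1020, 958.5 and 1179 in knockouts against 354 to 793 in controls, 0.98 ± 0.33 (adjusted p = 0.105), and 1.18 with the block (adjusted p = 0.0171). Dync1li1, a cargo-binding light intermediate chain, read 1270, 910 and 784 against 1270 to 2277, the highest knockout array just reaching the lowest control, -0.86 ± 0.45 (adjusted p = 0.303), and -1.02 with the block (adjusted p = 0.00805). Dynlt3 was at -0.37 ± 0.15 (adjusted p = 0.181), with knockouts at 7709 to 9409 below every control.

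Many members had no called difference between the genotypes. Tuba4a gave 1494, 2356 and 1805 in knockouts, a log2 difference of -0.04 ± 0.29 from controls. Kif1a (-0.13 ± 0.82), Kif5a (0.06 ± 0.48), Kif5b (-0.13 ± 0.23), Kif5c (-0.15 ± 0.24), Dynll1 (0.07 ± 0.14), Dynll2 (0.15 ± 0.46), Tuba1a (-0.12 ± 0.14), Tubb2a (0.24 ± 0.14), Tubb2b (-0.01 ± 0.15) and Tubb3 (-0.48 ± 0.33) did not pass. Dync1h1 was at -0.33 ± 0.23 and was called with the block (-0.45, adjusted p = 0.0449). With all arrays the standard errors were widest for Kif1a, Kif5a and Dynll2, so these values exclude little. The spread of the progenitor arrays enters these errors through the shared variance. The fit of only the 2 groups compared gave -0.13 ± 0.25 for Kif1a and 0.15 ± 0.16 for Dynll2, neither of them called. In that fit Kif5a was at 0.06 ± 0.39, still a wide error. Beside the genotype comparison, the summed signal of 9 fibroblast and mural markers was 3468 to 6383 in knockouts and 837 to 2042 in controls, with 3 and 4 of the 9 under 100 on every array of the group. On knockout arrays most of that sum came from Acta2 and Tagln. On knockout replicates 1 to 3 Col1a2 read 54.3, 141 and 829, and Col3a1 20.5, 167 and 956. The astrocyte sums given above also differed, with every knockout array above every control array. Their part in the member values was not tested. Microglia markers summed to 257 or less and endothelial markers to 118 or less on these arrays.

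Knockout oligodendrocytes were also set against progenitors: 9 members were higher (23.8% of all genes) and 20 lower (26.8%). Without progenitor replicate 2 the counts were 15 and 22 (28.2% and 30.6%), and without replicates 1 and 4 they were 7 and 18 (20.1% and 21.4%). All 11 mitotic kinesins were lower, with the same limit from the filter. Kif24 lost its call without progenitor replicates 1 and 4 (adjusted p = 0.192), in the fit of these 2 groups (0.0532) and with the replicate block (0.0862). Knockout signals under 100 on every array made the fold a bound: Kif2c was at least 27.6-fold lower than in progenitors, Kif11 at least 17-fold, Kif20a at least 12.2-fold, Kif23 at least 11.9-fold, Kif4 at least 11.5-fold and Kif20b at least 7.50-fold, against a floor of 100. These bounds move with the progenitor arrays: without replicates 1 and 4 they were 13.5-fold for Kif2c, 7.69-fold for Kif23 and 7.59-fold for Kif4, and without replicate 2 they were 43.4-fold for Kif2c and 18.3-fold for Kif23.

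Tuba4a (log2 difference 3.32 ± 0.29), Dynll2 (1.95 ± 0.46), Dynlt3 (1.10 ± 0.15) and Kif1a (2.32 ± 0.82, adjusted p = 0.0339) were higher in knockouts than in progenitors too. Tuba4a and Kif1a passed the filter through oligodendrocyte arrays only, so their calls are a description. Kif1a was at 0.57 (adjusted p = 0.203) without progenitor replicates 1 and 4. Kif3b was higher by 1.33 ± 0.30 (adjusted p = 0.0037), and Kif13a lower at -2.04 ± 0.18. Tubb4a (0.65 ± 0.58) and Kif21a (0.55 ± 0.64) did not pass in this comparison. Without progenitor replicate 2 they did, at 1.34 (adjusted p = 0.000865) and 1.18 (adjusted p = 0.0357), and without replicates 1 and 4 both were below 0 and not called, at -0.25 and -0.69.

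Among tubulins, Tubb5 (-1.22 ± 0.15), Tubb2b (-0.64 ± 0.15), Tuba1a (-0.53 ± 0.14) and Tubg1 (-1.16 ± 0.23) were lower than in progenitors. After quantile normalization Tubb2b was at -0.26 (adjusted p = 0.107) and Tuba1a at 0.10, neither of them called. With the replicate block these genes also lost their calls (adjusted p = 0.063 for Tubb2b and 0.0574 for Tuba1a). Dync1h1 was lower as well (-0.92 ± 0.23, adjusted p = 0.00632, and 0.0516 without progenitor replicates 1 and 4). With all arrays, not called were Tubb3 (0.68 ± 0.33), Tubb2a (-0.23 ± 0.14), Dynll1 (-0.30 ± 0.14), Kif1b (0.20 ± 0.23), Kif3a (0.26 ± 0.29), Kif5a (0.69 ± 0.48), Kif5b (0.19 ± 0.23) and Kif5c (-0.12 ± 0.24). Without progenitor replicate 2 Tubb3, Tubb2a and Kif5a were called (adjusted p = 0.0321, 0.0422 and 0.027), while Dynll1 was called without replicates 1 and 4 (-0.49, adjusted p = 0.0072).

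Progenitor replicate 2 took an in-between place for many members. For 31 genes the other 3 progenitors and the controls did not overlap. In the 10 of these with higher controls, replicate 2 lay above the other 3 progenitors in 8 and reached the control range in 5, and in the 21 with lower controls it lay below the others in 18 and reached the control range in 5. Tuba4a, Dynlt3, Kif13a, Kif21b and Tubb2b were those of the 31 for which replicate 2 did not lie beyond the other 3 progenitors on the side of the controls.

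Partners of the motors were read from lists, whose counts stand beside 24.4% higher and 29.6% lower over all genes between controls and progenitors, and 3.64% and 3.88% between genotypes. Of 25 microtubule-associated and stathmin genes, 8 were higher and 7 lower in controls than in progenitors, and 4 were lower in knockouts than in controls (Tppp, Stmn4, Map7 and Stmn3). Tppp, a microtubule bundling protein of oligodendrocytes, gave 218, 190 and 21 in knockouts and 7607, 7337, 9566 and 5042 in controls, a log2 difference of -5.90 ± 0.59 (adjusted p = 0.00014). Map7, which recruits and activates kinesin-1, gave 166, 200 and 159 against 1165 to 3761 (-3.42 ± 0.35, adjusted p = 0.00014). Both sets of knockout signals lay below all control signals and near the progenitor signals of 62 to 294.5 for Tppp and 90.8 to 192 for Map7.

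Dynactin and dynein adaptors had 5 of 14 higher and 2 lower in controls than in progenitors and 0 called between genotypes, with 0 higher and 2 lower without progenitor replicate 2. Kinesin light chains and adaptors had 5 of 13 higher and 3 lower, and 1 higher in knockouts, Trak1, a mitochondrial adaptor (0.71 ± 0.19, adjusted p = 0.0455), with 1 higher and 3 lower without progenitor replicate 2. In tubulin folding and modification, 5 of 27 were higher and 11 lower in controls than in progenitors. The lower ones included the chaperonin subunits Cct2, Cct3, Cct4, Cct5, Cct7 and Tcp1, which fold tubulin and actin. Ttll7, a polyglutamylase of beta tubulin, was lower in knockouts than in controls (-1.07 ± 0.19, adjusted p = 0.00482).

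The gamma-tubulin complex and centrosome list had 1 of 13 higher and 5 lower in controls than in progenitors, and 0 called between genotypes. Intraflagellar transport, which uses kinesin-2 and dynein 2, had 5 of 20 higher and 2 lower in controls than in progenitors. Bbs4 (0.76 ± 0.18, adjusted p = 0.0258) and Ift81 (0.65 ± 0.17, adjusted p = 0.0344) were higher in knockouts than in controls, and 4 of the 20 were without progenitor replicate 2. Ciliated-cell markers summed to 747 to 1173 in knockouts and 555 to 797 in controls, with 6 of 9 under 100 on all arrays of each group, and their part was not tested.

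The 19 members under the filter were Dync1i1, Kif12, Kif14, Kif15, Kif17, Kif26a, Kif26b, Kif27, Kif28, Kif2b, Kif6, Kif9, Kifc2, Kifc5b, Tuba3b, Tuba8, Tubb1, the pseudogene Tubb2a-ps2 and Tubg2. Dync1i1, the neuronal dynein intermediate chain, was at most 105 on any array. Kifc5b, a minus-end motor close to Kifc1, gave 212, 18, 280 and 157 in progenitors and at most 26.3 on the other arrays. Kif26b gave 147, 214 and 158 in knockouts, 48.4 to 96 in controls and 28 to 59.2 in progenitors. These genes were not tested.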

How the data were processed

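RNA of 11 samples was labelled by a two-cycle protocol and hybridised to Affymetrix Mouse Genome 430 2.0 arrays, per the labels' protocols. The deposited values are MAS 5.0 signal intensities on a linear scale, made by the authors with GCOS 1.3 and scaled to a target of 500, per the labels' protocols. Here 16 was added to each signal and log2 taken, which understates the change of dim genes. Probe sets were named from the platform annotation, 34958 having 1 symbol, 932 several and 9211 none, with 34754 updated by Entrez ID to RefSeq (GRCm38.p6). Genes were kept where a probe set reached 200 on at least 3 arrays and were read from the brightest one. limma 3.58.1 in R 4.3.3 (lmFit, eBayes with trend) was fitted to all 11 arrays, with Benjamini-Hochberg adjustment over 10069 genes and a threshold of 0.05. Adjusted p-values given for another set of arrays, the block or another normalization come from the same limma steps refitted to it, and those of further probe sets of a gene from a fit of 18568 probe sets. It was tested on simulated data.

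Members, roles, lists and markers were chosen with earlier results of these data known. Named were, in each role and comparison, up to 4 genes in each direction with the largest called difference, a panel of 20 genes whatever its result, and genes with probe sets called both ways; the panel's Tuba1b had no probe set of its own, and other members were named after their values were seen. Same-numbered arrays were treated as pairs only in the fits with the replicate block, and the main fit had no block. Between knockouts and controls each pair's deviations correlated above 0.1. Between controls and progenitors the correlations were -0.069, 0.193, 0.111 and 0.073, and between knockouts and progenitors -0.117, 0.033 and -0.079. The number of arrays limits the precision. Alternatives were pseudocounts of 4 and 64, a filter of 100 or none, quantile normalization, the mean of probe sets, other probe sets, fits of 2 groups, the replicate block, and leaving out arrays. A fold bound uses 100 as its floor. Levels of different probe sets were not compared.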

Additional observations from a re-analysis of the deposited data

Results flagged for a closer look

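In each group of 4 arrays the gap of the highest or lowest array to its nearest neighbour was divided by the group's range and compared with the 95% critical value of Dixon's test, which chance passes in about 1 of 20 groups. Of 98 such groups of the 49 genes, 8 passed. Progenitor replicate 2 accounted for 4 of these: it was low for Tubb6 (0.95) and Kif20b (0.855) and high for Dynll2 (0.846) and Kif21b (0.84). Control replicate 3 was high for Kif2a (0.945) and Kif5b (0.879) and low for Kif5a (0.921). Control replicate 1 was high for Dynlt3 (0.924), where the 4 control signals lay within 11087 to 11473.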

How the results depend on the processing

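Pseudocounts of 4 and 64 and a filter at 100 changed no call or direction of the 84 named values. Between knockout and control, members higher and lower numbered 3 and 0; a fit of these 2 groups gave 6 and 7, the replicate block, which uses pairs of same-numbered arrays, 6 and 11, leaving out 1 array 1 to 4 and 0 to 4, and leaving out progenitor replicates 1 and 4 3 lower. Between controls and progenitors, 6 were higher without progenitor replicates 1 and 4. Between knockouts and progenitors, leaving out 1 array gave 6 to 15 higher, 15 without progenitor replicate 2. In both comparisons with progenitors not every same-numbered pair had deviations correlated above 0.1. With progenitors the replicate block gave 8 higher and 18 lower for controls (21.2% and 25.1% of all genes) and 6 and 15 for knockouts (15.3% and 15.4%).

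Directions turned as follows; the cause was not tested. Quantile normalization gave, controls against progenitors, 0.10 for Dynll1 and 0.077 for Tuba1a; knockouts against progenitors, 0.32 for Dynll1 (adjusted p = 0.03) and 0.10 for Tuba1a; and knockouts against controls, -0.028 for Kif5a, 0.028 for Tuba1a and 0.10 for Tubb2b. The mean of probe sets gave, in the same order, -0.14 for Kif1b and 0.061 for Kif2a; -0.23 for Kif1b and 0.29 for Kif5c; and -0.10 for Kif5a and 0.090 for Kif5c. The replicate block gave 0.0068 for Tubb2b between genotypes and 0.075 for Kif5c in knockouts against progenitors. Without progenitor replicates 1 and 4, Kif5b was -0.10 in controls against progenitors, and in knockouts against progenitors Kif21a was -0.69, Kif5b -0.23, Kif5c 0.30 and Tubb4a -0.25.

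Other probe sets of a gene turned its direction too. In controls against progenitors they gave -0.37 for Kif5b, -1.64, -0.97 and -1.54 for Kif1b, 0.31 for Kif3a, and 0.53 and 0.80 for Kif2a. In knockouts against controls they gave 0.080 for Kif5b, 0.33 for Kif5c, -0.26 for Kif5a, and 0.55, 0.35 and 0.20 for Kif1b. In knockouts against progenitors they gave -0.29 for Kif5b, 0.70 for Kif5c, -0.27, -1.08, -0.62 and -1.34 for Kif1b, 0.48 and 0.80 for Kif2a, and -0.032 for Kif3a.

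Leaving out 1 array turned 9 differences. They ranged over -0.49 to 0.0078 for Kif3a and -0.13 to 0.22 for Kif5c in controls against progenitors, and -0.0095 to 0.32 for Kif1b and -0.28 to 0.075 for Kif5c in knockouts against progenitors. Between genotypes they ranged over -0.0073 to 0.22 for Dynll2, -0.29 to 0.12 for Kif1a, -0.35 to 0.22 for Kif5a, -0.21 to 0.12 for Tuba4a and -0.071 to 0.080 for Tubb2b. Of the called differences of named genes, 11 of 28 between controls and progenitors, 13 of 21 between knockouts and progenitors and 1 of 3 between genotypes passed under all 20 settings. Signals near 100 limit what the dim kinesins can show.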
